A study of Mus minutoides with 4 samples.

Results

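The contractile actomyosin genes described here are *Acta2*, *Tagln*, *Cnn1*, *Cnn2*, *Myl9*, *Tpm1*, *Tpm2*, *Tpm4*, *Myh9* and *Actn1*, taken by name as 10 of the 41325 genes counted in 4 RNA-seq libraries of *Mus minutoides*, the African pygmy mouse. The libraries came from iPSC lines 6 and 10 and from fibroblast lines 1 and 2, with 1 library per line and n = 2 in each group. The fibroblasts were primary cells grown out of tail tips in DMEM with 10% fetal bovine serum. The iPSCs were made from *M. minutoides* tail-tip fibroblasts with PiggyBac plasmids that carried doxycycline-inducible *Oct3/4*, *Klf4*, *Sox2* and *c-Myc*, and *Glis1*, *Nanog* and *Lin28a*, together with a plasmid for rtTA, EGFP and neomycin resistance driven by CAG and PGK promoters. Doxycycline had been withdrawn, and the iPSCs were kept in 2i medium on mitomycin C-treated mouse embryonic fibroblasts, whereas no feeder cells are described for the fibroblasts. Cell type, medium and RNA from feeder cells therefore cannot be told apart in this comparison. No source says whether the lines were taken from different animals. The p-values below reflect how much these libraries vary within a group, and part of that may be technical.

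Contractile force in cells comes from myosin II filaments that pull on actin filaments. Tropomyosins, calponins and transgelin sit along the actin filament, alpha-actinin crosslinks filaments, and the regulatory light chain switches myosin on when it is phosphorylated, for example by myosin light chain kinase. In cultured fibroblasts these proteins build stress fibers that end in focal adhesions, and smooth muscle α-actin and transgelin mark activated fibroblasts as well as smooth muscle. Many of the genes are known targets of serum response factor (SRF) and its actin-sensing cofactors, the myocardin-related transcription factors.

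Exon reads summed to 36694828 and 33858709 in iPSC lines 6 and 10, against 33546022 and 33084850 in fibroblast lines 1 and 2. All 9 pluripotent cell markers examined were called higher in iPSCs, *Zfp42* and *Esrrb*, which the plasmids do not carry, among them. Of 16 fibroblast markers, 13 were called lower. The other 3, *Dcn*, *Lum* and *Fap*, were not called. The log2 fold change (iPSC over fibroblast) of *Dcn* was positive, at 0.94 ± 0.56 (SE, edgeR adjusted p = 0.192). Of all genes tested, 27.1% were called higher and 22.3% lower. The fibroblast markers were all above 0 in every library. They summed to 7970 and 4153 TPM in iPSC lines 6 and 10, against 29268 and 34399 TPM in the fibroblast lines. TPM is exon reads per exon length scaled to the same total in each library. Of these sums *Col1a1* alone held 2244 and 1430 TPM in iPSCs and 12541.5 and 14994.6 TPM in fibroblasts. *Dcn* had 374 and 120 TPM in iPSC lines 6 and 10, against 108 and 130 TPM in the fibroblast lines. *Lum* had 478 and 68.1 TPM in iPSC lines 6 and 10, against 451 and 541 TPM in the fibroblast lines. Macrophage markers summed to 28.9 and 88.7 TPM in iPSC lines 6 and 10, against 1.69 and 2.15 TPM in the fibroblast lines, where *Adgre1* was at 0, and endothelial markers to 22.2 and 15.2 TPM against 0.814 and 1.28 TPM. Keratinocyte markers summed to between 8.07 and 13.8 TPM in every library. The part of these cell types in the results was not tested.

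The contractile genes were lower in iPSCs as a group. Their summed TPM was 1554 and 1541 in iPSC lines 6 and 10, against 5796 and 5802 in fibroblast lines 1 and 2, so that the iPSC libraries held 26.8% and 26.6% of the fibroblast mean. Exon reads were compared with the quasi-likelihood test of edgeR, and a gene was called when its Benjamini-Hochberg adjusted p over 17777 tested genes was under 0.05 and its fold change over 2. All 10 genes were tested, 9 were called lower in iPSCs and *Actn1* was not called. Of all genes tested, 22.3% were called lower and 27.1% higher. None of the 10 was called higher by edgeR, DESeq2 or limma, or had a positive change at an unadjusted p under 0.05. The median log2 fold change (iPSC over fibroblast) was -1.81 for the contractile genes and 0.08 for all genes tested. In bulk RNA, fewer cells that express a gene and less of its RNA per cell cannot be told apart. With total counts in place of TMM as the scale, the median of all genes tested shifted by 0.28, the split of calls became 5768 higher and 3028 lower (32.4% and 17% of genes tested) in place of 4818 and 3962, and the same 9 contractile genes were called lower.

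**Figure D1:**
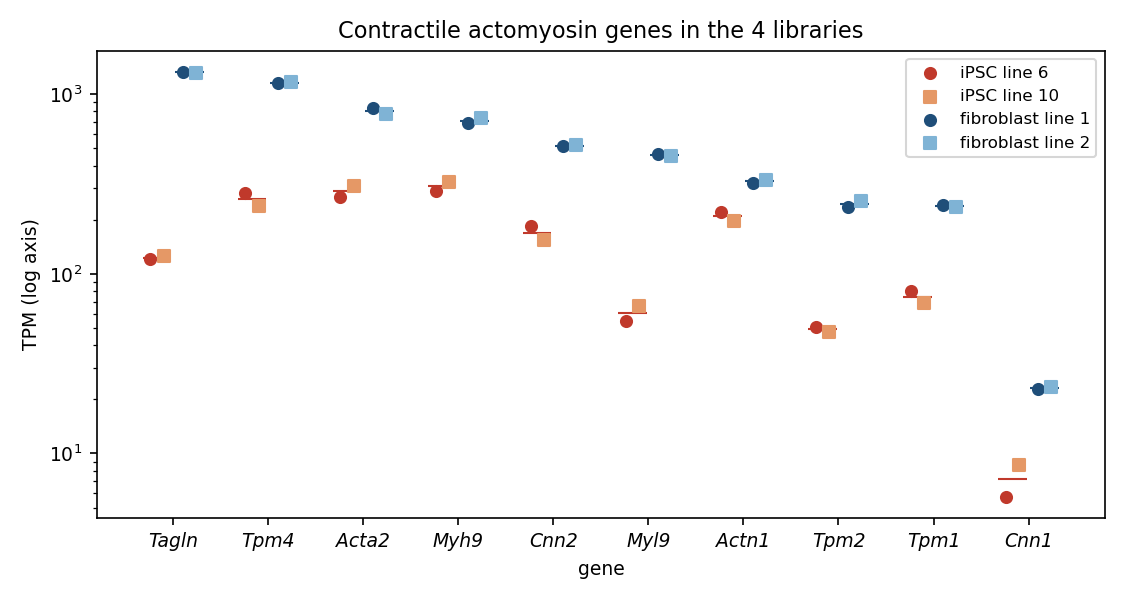
TPM of each contractile gene (log axis) in iPSC lines 6 and 10 (red and orange) and fibroblast lines 1 and 2 (dark and light blue); short lines are group means (n = 2). In all 10 genes both iPSC libraries lie below both fibroblast libraries, from *Tagln* (120.2 and 126 against 1327 and 1313 TPM) to *Actn1* (221 and 198 against 320.7 and 332 TPM).

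In each of the 10 genes both iPSC libraries had a lower TPM than both fibroblast libraries, a separation that 37.8% of all genes tested showed in the same direction. With 2 libraries against 2, an exact two-sided permutation test of a single gene cannot give a p below 0.333, so the tests below are those of the fit across all genes.

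*Acta2* (ENSMUSG00000035783, GRCm38 chromosome 19, 34241090 to 34255336) encodes smooth muscle α-actin, the actin isoform added to stress fibers of activated fibroblasts. It had 269 and 309 TPM in iPSC lines 6 and 10, against 833 and 774 TPM in fibroblast lines 1 and 2. Mean *Acta2* was 289 ± 28.4 TPM for the iPSC lines, against 803 ± 41.3 TPM for the fibroblast lines (SD, n = 2 each), so the gap exceeded the spread within either group. *Acta2* fell by 1.61 ± 0.12 on the log2 scale (SE, edgeR adjusted p = 0.000651). By its mean it was the second most abundant contractile gene in iPSCs.

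*Tagln* (ENSMUSG00000032085, chromosome 9, 45929619 to 45936058) encodes transgelin, a calponin-related protein that binds actin filaments and is an early marker of smooth muscle. It had 120.2 and 126 TPM in iPSC lines 6 and 10, against 1327 and 1313 TPM in fibroblast lines 1 and 2. The libraries of a group lay close together and the groups far apart. This was the steepest fall among the 10 genes, 11.8-fold or 3.56 ± 0.09 on the log2 scale (SE, edgeR adjusted p = 0.000142). Only 49.4% and 46.8% of its exon reads in iPSC lines 6 and 10 were placed at a unique site, against 48.5% and 48.9% in the fibroblast lines. The share of unique reads was thus similar in both groups, and with unique reads alone the log2 fold change was -3.56. Part of *Tagln* also overlaps an antisense gene model, Gm48529, over 3627 bases, and whether the counting used strand is not given in the sources used here. Gm48529 itself had 72 and 52 exon reads in iPSCs and 287 and 234 in fibroblasts, against 2611 and 2533 and 24542 and 22395 for *Tagln*. Far fewer reads were thus assigned to the antisense model, but without strand the reads of the pair cannot be told apart.

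The calponins bind actin and calmodulin and restrain the myosin ATPase. *Cnn2* (ENSMUSG00000004665, chromosome 10, 79988584 to 79996062), the form found in many non-muscle cells, had 184 and 154 TPM in iPSC lines 6 and 10, against 514 and 519 TPM in the fibroblast lines. It fell by 1.74 ± 0.13 on the log2 scale (SE, edgeR adjusted p = 0.000591). *Cnn1* (ENSMUSG00000001349, chromosome 9, 22099216 to 22109630), the smooth muscle form, was the least abundant contractile gene in all 4 libraries, at 5.75 and 8.65 TPM in iPSC lines 6 and 10, against 22.9 and 23.4 TPM in fibroblast lines 1 and 2. These levels rest on 172 and 240 exon reads in iPSCs and 582 and 550 in fibroblasts, and the iPSC lines were further apart in *Cnn1* than in any other contractile gene. Its fall of 1.81 ± 0.23 had the largest standard error of the 10 (log2 scale, edgeR adjusted p = 0.00264).

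The tropomyosins lie end to end along the actin filament and set which proteins reach it. *Tpm4* (ENSMUSG00000031799, chromosome 8, 72134975 to 72153142), a mainly cytoskeletal form, had 281 and 237 TPM in iPSC lines 6 and 10, against 1152 and 1167 TPM in fibroblast lines 1 and 2. *Tpm2* (ENSMUSG00000028464, chromosome 4, 43514711 to 43523765), or beta-tropomyosin, had 50.4 and 47.7 TPM in iPSCs, against 236 and 255 TPM in fibroblasts. *Tpm1* (ENSMUSG00000032366, chromosome 9, 67022590 to 67049406), whose many isoforms serve both muscle and non-muscle cells, had 80.4 and 68.9 TPM in iPSCs, against 241 and 236 TPM in fibroblasts. Antisense gene models also overlap *Tpm4*, of which Gm16091 held 38 and 23 exon reads in iPSCs and 135 and 97 in fibroblasts. All 3 tropomyosins were called lower and the groups were far apart relative to the spread of lines. On the log2 scale *Tpm2* fell by 2.45 ± 0.08, *Tpm4* by 2.29 ± 0.12 and *Tpm1* by 1.81 ± 0.12 (SE, edgeR adjusted p = 0.00016, 0.000339 and 0.00053).

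The myosin genes differed from each other in the size of their fall. *Myl9* (ENSMUSG00000067818, chromosome 2, 156775420 to 156781658), a regulatory light chain of smooth muscle and non-muscle myosin II, had 54.3 and 66.5 TPM in iPSC lines 6 and 10, against 463 and 449 TPM in fibroblast lines 1 and 2. It fell by 3.05 ± 0.14 on the log2 scale, an 8.27-fold difference (SE, edgeR adjusted p = 0.000244). *Myh9* (ENSMUSG00000022443, chromosome 15, 77760587 to 77842175), the heavy chain of non-muscle myosin IIA, had 288 and 325 TPM in iPSCs, against 687 and 733 TPM in fibroblasts. It fell by 1.34 ± 0.08 (log2 scale, SE, edgeR adjusted p = 0.000383), the least of the 9 genes called, and was the most abundant of the 10 in iPSCs.

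*Actn1* (ENSMUSG00000015143, chromosome 12, 80167547 to 80260371) encodes a non-muscle alpha-actinin that crosslinks actin filaments and ties them to focal adhesions. It had 221 and 198 TPM in iPSC lines 6 and 10, against 320.7 and 332 TPM in fibroblast lines 1 and 2. The groups did not overlap, but the difference was small: the log2 fold change was -0.77 ± 0.10 (SE, edgeR adjusted p = 0.00247), or 1.71-fold, under the fold that a call required. *Actn1* was therefore called lower only where no fold was required or where edgeR's glmTreat tested against a fold of 1.5.

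The order of the genes changed between the groups. TPM divides by the exon length of the whole gene model, which was 6485 bases for *Tpm1* with 21 annotated transcripts and 2203 for *Tpm4* with 2. That length can exceed the transcripts present, so levels of different genes compare only roughly. It is the same in both groups. In fibroblasts the order ran *Tagln*, *Tpm4*, *Acta2*, *Myh9*, *Cnn2*, *Myl9*, *Actn1*, *Tpm2*, *Tpm1* and *Cnn1*, and only *Tpm2* and *Tpm1* had overlapping libraries. In iPSCs it ran *Myh9*, *Acta2*, *Tpm4*, *Actn1*, *Cnn2*, *Tagln*, *Tpm1*, *Myl9*, *Tpm2* and *Cnn1*, where the libraries of *Myh9* and *Acta2* overlapped, as did those of *Acta2* and *Tpm4*. *Tagln* ranked 1520 by mean TPM among all genes in iPSCs, against 66 in fibroblasts, while *Myh9* ranked 486 in iPSCs, against 163 in fibroblasts. The first place of *Tagln* in fibroblasts counts its reads placed at several sites.

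Exon reads come mostly from spliced RNA and intron reads mostly from RNA not yet spliced, so the deposited files allowed the same comparison on each kind of read. This comparison was chosen after seeing the data. With intron reads, 9 of the 10 genes had enough reads to be tested and 8 were called lower, where 17% of all genes tested were called lower and 19.1% higher. *Cnn1*, with between 6 and 12 intron reads per library, was not tested, and *Actn1* had a log2 fold change of -0.64 ± 0.14 (SE, edgeR adjusted p = 0.00796), again under the required fold. With reads that cross an exon-exon junction, the same 9 genes as in the exon reads were called lower, where 21.8% of all genes tested were called lower and 26.2% higher.

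*Tagln* and *Myl9* stood apart in this comparison, because their intron reads fell less than their exon reads. *Tagln* had 37 and 39 intron reads in iPSC lines 6 and 10, against 131 and 129 in fibroblast lines 1 and 2, and its intron reads fell by 2.26 ± 0.22 where its exon reads fell by 3.56 (log2 scale, SE). The difference of the exon and intron changes, tested in edgeR with a term for each library, was -1.21 ± 0.19 for *Tagln* (SE, adjusted p = 0.00156) and lay between -1.34 and -1.14 with any library left out. *Myl9* had 69 and 47 intron reads in iPSCs, against 149 and 151 in fibroblasts, and its difference was -1.10 ± 0.25 (SE, edgeR adjusted p = 0.00937). The *Myl9* call was lost without iPSC line 6 (-0.71) and without fibroblast line 1 (-0.999). Over 14515 genes, 9.21% were called lower by this measure and 13.4% higher, with a median of 0.053. The other 7 genes were not called, with values between -0.19 for *Tpm4* and 0.38 for *Tpm1*. The intron reads behind both calls were few, and they were at most 1.52% of *Tagln* gene reads in any library.

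**Figure D2:**
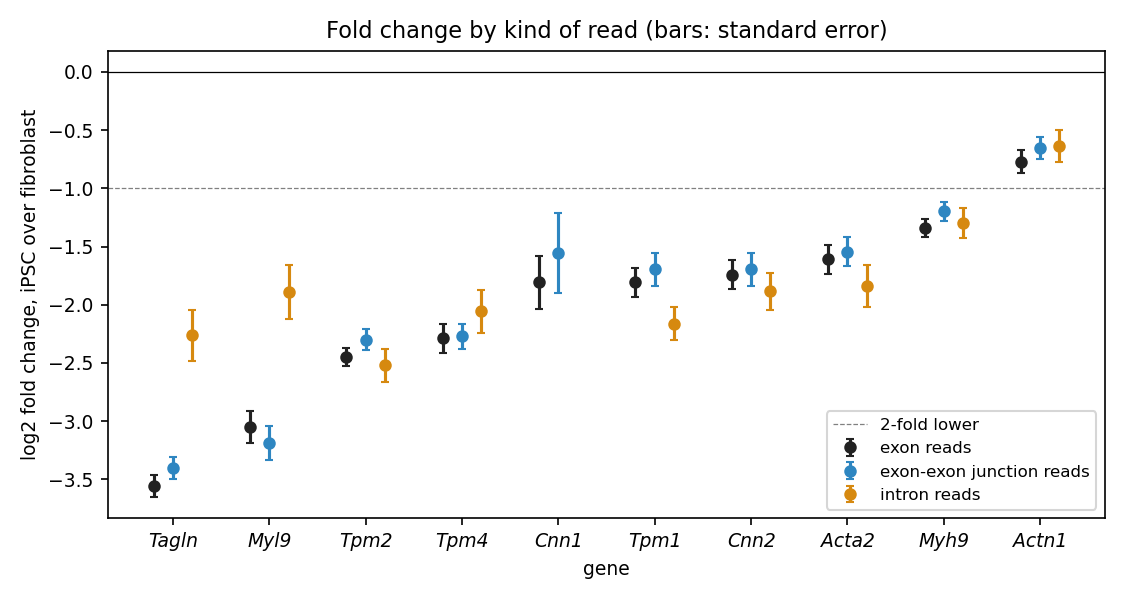
Log2 fold change (iPSC over fibroblast) of each contractile gene from exon reads (black), exon-exon junction reads (blue) and intron reads (orange); bars are standard errors from edgeR and the dashed line marks a 2-fold lower level. The 3 kinds of read lie close together except in *Tagln* and *Myl9*, whose intron values (-2.26 and -1.89) lie above their exon values (-3.56 and -3.05), and *Cnn1* has no intron value.

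Each contractile gene belongs to a family of paralogs, and the makeup of some families differed between the groups. These shares were set beside their spread and not tested. They too depend on the exon length of each gene model, such as 1162 bases for *Myl9* and 3360 for *Myl12a*. The light chain family showed the widest gap for a contractile gene. *Myl9* made up 25.7% ± 3.76 of the summed TPM of *Myl9*, *Myl12a* and *Myl12b* in iPSCs and 65.1% ± 1.59 in fibroblasts (SD, n = 2 each). *Myl12a* and *Myl12b*, the near-identical regulatory light chains found in most cells, were not called, with log2 fold changes of -0.77 ± 0.11 and -0.34 ± 0.07 (SE), although *Myl12a* was called lower with intron reads (-1.46). Between 55.6% and 69.4% of their exon reads were placed at a unique site, so their split is uncertain. With unique reads per length *Myl9* made up 34.9% of the family in iPSCs and 76.3% in fibroblasts.

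Among the calponins, *Cnn2* made up 30.6% ± 3.07 of the family TPM in iPSCs and 61.0% ± 1.24 in fibroblasts (SD, n = 2 each), and *Cnn3*, a widely expressed calponin, 68.1% in iPSCs and 36.2% in fibroblasts. *Cnn3* itself had 372 and 379.8 TPM in iPSC lines 6 and 10, against 293 and 319.9 TPM in the fibroblast lines, with a log2 fold change of 0.17 ± 0.06 that was not called (SE, edgeR adjusted p = 0.0769). With total counts as the scale *Cnn3* was at 0.45 (edgeR adjusted p = 0.00551) and with junction reads at 0.37 (edgeR adjusted p = 0.00624), both under the required fold. With intron reads it was at 0.018. The change in makeup thus accompanied a lower level of *Cnn2* and a *Cnn3* level that was not called.

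The tropomyosin family held a similar pattern. *Tpm3* had 114 and 112 TPM in iPSCs, against 115 and 118 TPM in fibroblasts, and made up 22.9% of the family in iPSCs and 6.62% in fibroblasts, while *Tpm4* made up 52.2% in iPSCs and 65.9% in fibroblasts. The log2 fold change of *Tpm3* was -0.17 ± 0.08 (SE, edgeR adjusted p = 0.104), and it turned to 0.11 with total counts as the scale. About as many *Tpm3* exon reads were placed at several sites as at a unique one, and with unique reads its share was 13.2% in iPSCs and 3.67% in fibroblasts.

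Among the actins, the cytoplasmic forms *Actb* and *Actg1* dominated in both groups and were not called. *Actb* had 2467 and 2412 TPM in iPSCs, against 2926 and 3037 TPM in fibroblasts, with a log2 fold change of -0.42 ± 0.07 (SE, edgeR adjusted p = 0.00577). *Actg1* had a log2 fold change of -0.20 ± 0.07, which turned to 0.08 with total counts as the scale and to 0.04 with junction reads. With intron reads both were called lower, at -1.65 for *Actb* and -1.38 for *Actg1* (edgeR). *Acta2* made up 6.26% of actin TPM in iPSCs and 13.7% in fibroblasts. The other muscle actins were scarce. *Actg2*, the enteric smooth muscle form, fell by 2.86 ± 0.12, and *Acta1*, the skeletal form, fell by 1.48 ± 0.12. With junction reads *Acta1* was at -3.68, from 13 and 9 such reads in iPSCs, against 155 and 132 in fibroblasts. *Actc1*, the cardiac form, was not called at between 0.305 and 3.82 TPM, although without iPSC line 6 it was at -2.98.

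The transgelin and heavy chain families each held a scarce paralog that was called higher in iPSCs. *Tagln3*, known from neurons, had 13.1 and 15.2 TPM in iPSCs, against 4.51 and 4.23 TPM in fibroblasts, and rose by 1.52 ± 0.26 on the log2 scale (SE, edgeR adjusted p = 0.00671), a call lost without fibroblast line 2 (1.39). *Tagln2*, the widely expressed form, fell by 2.85 ± 0.07 (edgeR adjusted p = 0.000138), and *Tagln* made up 57.1% of the family in iPSCs, against 71.7% in fibroblasts. With unique reads per length *Tagln* made up 39.1% in iPSCs and 55.2% in fibroblasts, and *Tagln2* 51.6% and 44.4%. Which of these genes leads in iPSCs thus depends on the reads placed at several sites. *Myh14*, the heavy chain of non-muscle myosin IIC found in epithelia, had 16.4 and 30.5 TPM in iPSCs, against 2.08 and 2.89 TPM in fibroblasts, and rose by 3.10 ± 0.35 (edgeR adjusted p = 0.00186). *Myh10*, the heavy chain of myosin IIB, fell by 2.26 ± 0.09 (-0.97 and not called with intron reads), and *Myh9* made up 81.2% of heavy chain TPM in iPSCs and 77.7% in fibroblasts. *Myh11*, the defining heavy chain of smooth muscle, had 3.21 and 3.61 TPM in iPSCs, against 5.32 and 5.52 TPM in fibroblasts, and was not called. *Actn4*, the other non-muscle alpha-actinin, had a log2 fold change of -0.39 ± 0.06 and was not called, and the shares of *Actn1* were 32.4% in iPSCs and 37.3% in fibroblasts. The muscle forms *Actn2* and *Actn3* were scarce: *Actn2* rose by 1.32 ± 0.38 and *Actn3* fell by 2.12 ± 0.11 (edgeR). *Actn2* was also called higher with intron reads (1.80) and with junction reads (4.63), the latter from 70 and 89 junction reads in iPSCs against 1 and 1 in fibroblasts. The *Actn2* call was lost with glmTreat and without iPSC line 10 (0.97), fibroblast line 1 (1.66) or fibroblast line 2 (0.996), and *Actn3* was at -0.32 and not called with intron reads.

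**Figure D3:**
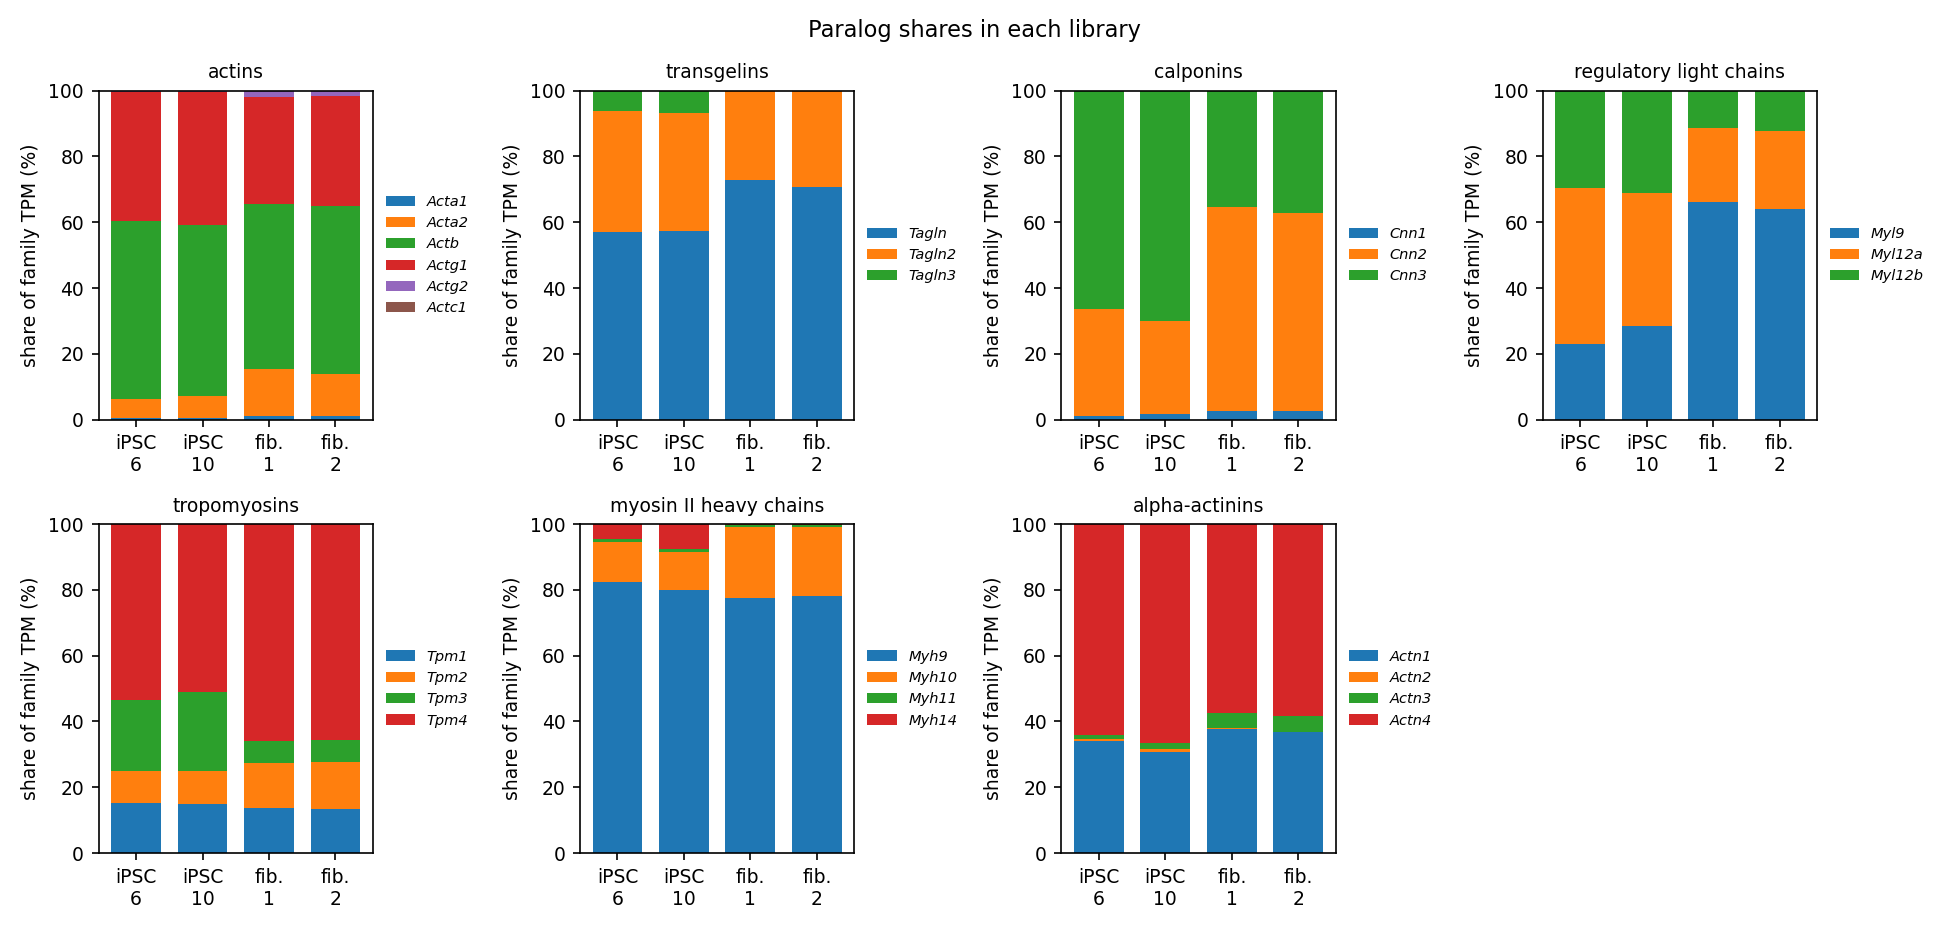
Share of each paralog in the summed TPM of its family (%, bars start at 0) in iPSC lines 6 and 10 and fibroblast lines 1 and 2. *Myl9* makes up 25.7% of the light chains in iPSCs and 65.1% in fibroblasts, *Cnn2* and *Cnn3* exchange places, and *Myh9* and *Actn1* keep similar shares in the 4 libraries.

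The iPSC lines were close to each other in the contractile genes. The ratio of line 6 to line 10 in TPM lay between 0.665 (*Cnn1*) and 1.19 (*Cnn2*), with 5 genes higher in each line. The median absolute log2 ratio between the lines was 0.21 for the contractile genes and 0.22 for all genes tested with a mean of at least 1 TPM. The fibroblast markers behaved differently between the same libraries: all 16 were higher in line 6, by ratios between 1.08 and 7.01, with a median absolute log2 ratio of 1.16. Their sum was 25.04% of the fibroblast mean in line 6 and 13.05% in line 10, while the sum of the contractile genes was 26.8% and 26.6%. The sum of the contractile genes was thus similar in the iPSC lines, while that of the fibroblast markers differed. The part of feeder RNA in either set of genes was not tested.

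**Figure D4:**
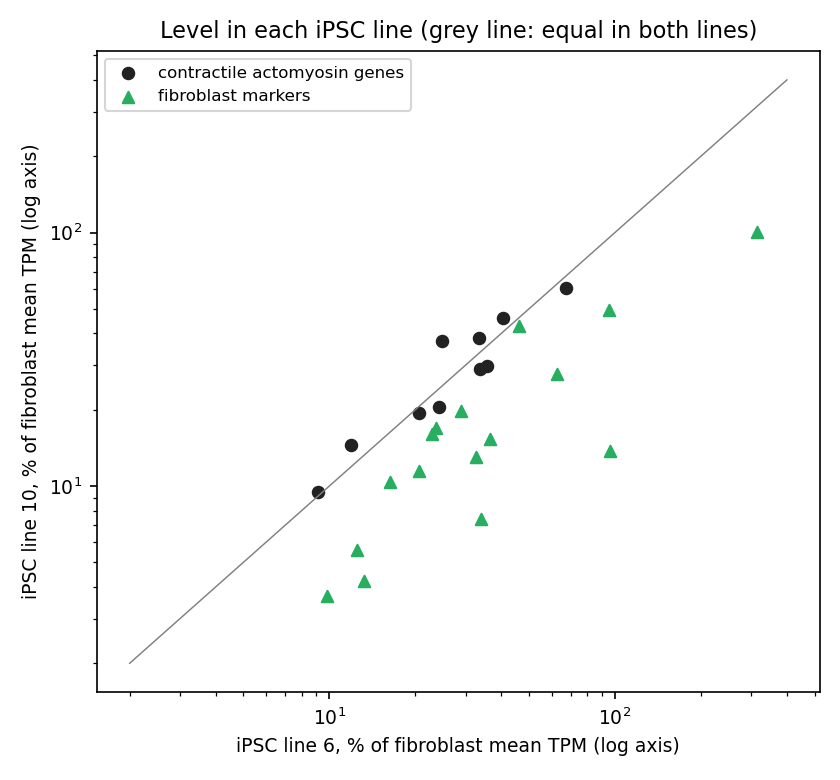
Level of each contractile gene (black circles) and fibroblast marker (green triangles) in iPSC line 6 (x axis) and line 10 (y axis), as a percentage of the mean TPM of the fibroblast lines (log axes). The contractile genes lie on both sides of the grey line of equality, between 9.10% and 67.6% in line 6, and all 16 fibroblast markers lie below it.

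Markers of muscle cells were checked beside these values. The smooth muscle and pericyte list summed to 109 and 128 TPM in iPSC lines 6 and 10, against 378 and 388 TPM in the fibroblast lines. In iPSCs 3 of its 9 tested genes were called higher and 4 lower, beside 27.1% and 22.3% of all genes tested. The list shares *Myh11*, *Des*, *Lmod1*, *Smtn* and *Actg2* with the further actomyosin genes. *Des*, encoding the intermediate filament protein of muscle, had 2.49 and 2.92 TPM in iPSCs, against 1.03 and 0.683 TPM in fibroblasts. Of 11 tested striated muscle genes, 9 were called higher in iPSCs and 1, *Acta1*, lower, with a median log2 fold change of 2.45. That list nevertheless summed to 45.1 and 47.4 TPM in iPSCs, against 61.9 and 63.9 TPM in fibroblasts, because *Acta1* alone held 56.5 and 57.6 TPM in fibroblasts. In fibroblasts *Myh11* and *Des* were far below *Acta2* and *Tagln*, but other genes of the smooth muscle and pericyte list were not as scarce. *Smtn* had 124 and 133 TPM in fibroblast lines 1 and 2, *Actg2* 107 and 103 TPM and *Lmod1* 46.2 and 46.5 TPM. The 4 genes of that list called lower in iPSCs were these and *Cspg4*.

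Further actomyosin genes, 28 in number and including the paralogs above, were mixed. In iPSCs 13 were called lower and 4 higher (*Tagln3*, *Myh14*, *Actn2* and *Des*), against 22.3% and 27.1% of all genes, and their median log2 fold change was -0.80. Without fibroblast line 2 only 1 of the 28 was called higher. The largest fall was in *Lmod1*, a smooth muscle leiomodin that nucleates actin, with 3.71 and 4.87 TPM in iPSCs, against 46.2 and 46.5 TPM in fibroblasts (log2 fold change -3.55 ± 0.16, SE, edgeR adjusted p = 0.000262).

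Among 30 regulators of RhoA signaling and of light chain phosphorylation, 8 were called lower and 2 higher in iPSCs, beside 22.3% and 27.1% of all genes tested, with a median log2 fold change of -0.53. Most of the list, 20 genes, was not called. *Mylk*, encoding myosin light chain kinase, had 4.59 and 2.31 TPM in iPSCs, against 35.1 and 35.0 TPM in fibroblasts, and fell by 3.46 ± 0.37 (log2 scale, SE, edgeR adjusted p = 0.00159). *Ppp1r12b*, a targeting subunit of myosin phosphatase, fell by 2.68 ± 0.12 (edgeR adjusted p = 0.000263). The more abundant myosin phosphatase genes *Ppp1r12a*, *Ppp1r12c* and *Ppp1cb* were not called, with log2 fold changes of -0.94, -0.06 and -0.65. The genes called higher encode inhibitors of that phosphatase. *Ppp1r14c* had 24.2 and 26.5 TPM in iPSCs, against 1.60 and 1.38 TPM in fibroblasts, and rose by 3.89 ± 0.20 (edgeR adjusted p = 0.000316), but with intron reads its log2 fold change was 0.45 and it was not called. *Ppp1r14a* had 7.90 and 13.6 TPM in iPSCs, against 2.67 and 1.28 TPM in fibroblasts, and rose by 2.21 ± 0.53 (edgeR adjusted p = 0.0182), and its call was lost without fibroblast line 2 (1.73). Without fibroblast line 2 only 1 of the 30 genes was called higher, and with total counts as the scale 4 were. The abundant *Cfl1*, encoding the actin-severing protein cofilin, and *Ppp1r14b* were not called, with log2 fold changes of -0.22 and -0.0024, both positive with total counts as the scale (0.06 and 0.28).

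The SRF group consisted of 7 genes. *Srf* had 109.8 and 118 TPM in iPSC lines 6 and 10, against 81.3 and 89.3 TPM in fibroblast lines 1 and 2, with a log2 fold change of 0.29 ± 0.07 that was under the required fold (SE, edgeR adjusted p = 0.0201). Its intron reads went the other way, with a log2 fold change of -1.75 (edgeR adjusted p = 0.000244). The 6 others were called lower, where 22.3% of all genes tested were called lower and 27.1% higher, and the median of the 7 was -1.80. *Mkl1* and *Mkl2*, the older symbols of the myocardin-related transcription factors, had log2 fold changes of -1.10 ± 0.07 and -1.32 ± 0.17 (SE), and the *Mkl1* value shrank to -0.81 with total counts as the scale, under the required fold. *Myocd*, encoding myocardin, was at 1.31 TPM or less in every library. The largest falls were in *Fhl1*, a LIM domain gene of muscle (8.70 and 5.81 TPM in iPSCs, against 120.5 and 129 TPM in fibroblasts), which fell by 4.22 ± 0.23, and in *Mamstr*, a coactivator of muscle transcription factors, which fell by 3.41 ± 0.33 (edgeR). None of the 7 was called higher by edgeR or DESeq2, and *Srf* was higher at an unadjusted p under 0.05. With intron reads 3 of the group were called lower (*Srf*, *Myocd* and *Fhl1*), where 17% of all genes tested were. Junction reads also gave 3 (*Fhl1*, *Fhl2* and *Mamstr*), where 21.8% of all genes tested were called lower. *Mamstr* had too few intron reads to be tested, and *Myocd* too few junction reads. The median of the 7 is the exon value of *Fhl2*. That gene was at 0.89 with intron reads and -0.34 with all gene reads, and was not called in either.

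Genes of focal adhesions and of actin linkage were lower more often than higher. Of 30 genes, 17 were called lower and 3 higher in iPSCs, beside 22.3% and 27.1% of all genes tested, with a median log2 fold change of -1.19. Among those called lower were *Vcl*, *Tln1* and *Ilk*, which couple integrins to actin. *Nexn*, encoding the actin-binding protein nexilin, fell by 2.82 ± 0.18, and *Parva*, encoding α-parvin, fell by 2.81 ± 0.32 (log2 scale, SE, edgeR adjusted p = 0.000428 and 0.00186). The genes of the ERM proteins differed in direction. These proteins are ezrin, radixin and moesin, which link actin to the membrane. *Ezr*, encoding ezrin, had 271 and 352 TPM in iPSCs, against 19.9 and 23.4 TPM in fibroblasts, and rose by 3.72 ± 0.15 (edgeR adjusted p = 0.000221). *Rdx*, encoding radixin, had a log2 fold change of -0.99 ± 0.07 and fell just short of the required fold, though it was called lower without iPSC line 10 (-1.03) or fibroblast line 1 (-1.04) and with intron reads (-1.44), and *Msn*, encoding moesin, was called lower. *Fblim1*, encoding the filamin-binding protein migfilin, rose by 2.50 ± 0.11 (edgeR adjusted p = 0.000242). *Dstn*, encoding the actin-severing protein destrin, was not called, with a log2 fold change of -0.63 ± 0.12, and was called lower with intron reads (-1.02).

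**Figure D5:**
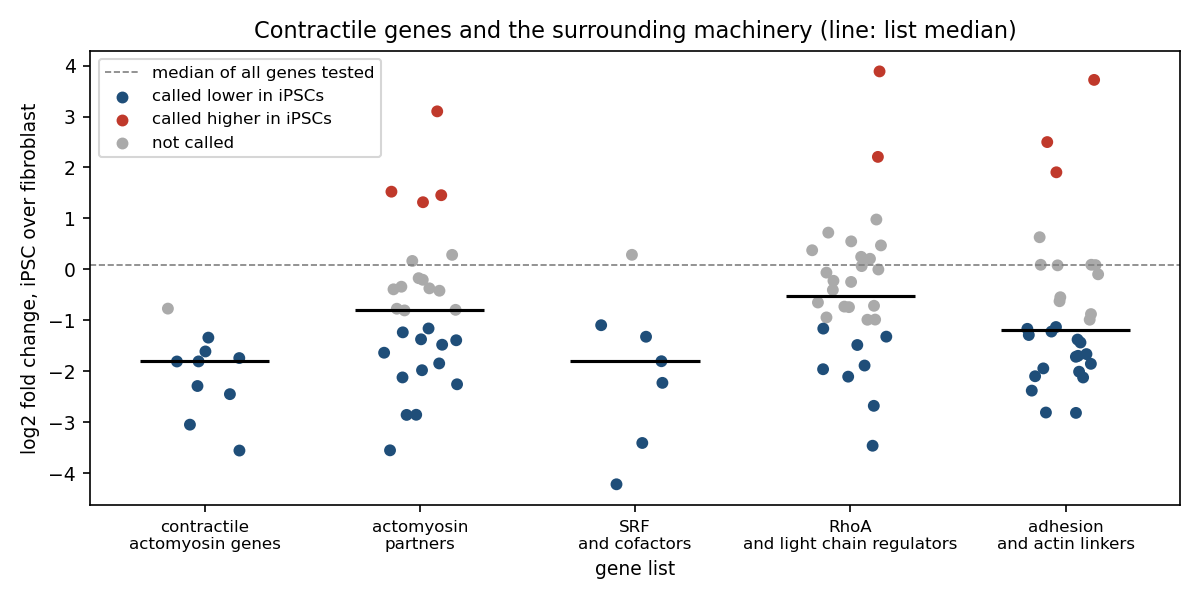
Log2 fold change (iPSC over fibroblast, y axis) of each tested gene in 5 gene lists, colored by its edgeR call (blue lower in iPSCs, red higher, grey not called); black lines are list medians and the dashed line is the median of all genes tested, 0.08. The contractile genes and the SRF group have the lowest medians (-1.81 and -1.80), and the other lists hold genes called in both directions.

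The genes were also ranked by likeness to the contractile genes. Likeness was the Euclidean distance, over the 4 libraries, between a gene's centered log2(TPM + 1) values and the median of those of the 10 contractile genes, among 4086 other genes whose mean was 50 TPM or more. The nearest were *mt-Tc*, a mitochondrial tRNA gene, at a distance of 0.11, followed by *Kifap3*, *Lrrfip1*, *Map4* and *Tmf1* at distances up to 0.137. *Map4*, encoding a microtubule-associated protein, had 39.3 and 36.9 TPM in iPSC lines 6 and 10, against 122 and 128 TPM in fibroblast lines 1 and 2. Of the contractile genes, *Tpm1* lay nearest to the median profile, at 0.176, and *Tagln* farthest, at 1.68. With 4 libraries in 2 groups this measure mainly reflects the size of the fall.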

How the data were processed

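Total RNA of 4 *M. minutoides* cultures was sequenced on an Illumina instrument, and the authors deposited, per library, read counts per gene model of *M. musculus* (build GRCm38) (total and unique reads of genes, exons, introns and exon-exon junctions). The sources used here do not give the aligner, the counter or the strand setting. Reads that differ from the *M. musculus* sequence may be lost, which was not tested. The deposited TPM values equal exon reads per exon length scaled to the same total per library. RPKM values deposited by the authors were not used, and the deposited fractions (unique or intron reads over all reads of a gene) were not used either, the same shares being computed from the counts.

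Exon read counts were tested with edgeR 4.0.16 in R 4.3.3 (filterByExpr, TMM factors of 1.09, 1.12, 0.891 and 0.920 for iPSC lines 6 and 10 and fibroblast lines 1 and 2, glmQLFit, glmQLFTest, prior count of 2). A call required both a 2-fold difference and a p under 0.05 after Benjamini-Hochberg adjustment. Standard errors are the log2 fold change over the root of the F statistic. In simulated counts with 200 changed genes among 17286, edgeR recovered 100 of 100 at 4-fold, likewise 100 of 100 at 8-fold, and called 2 unchanged genes. The simulation gave every gene the same dispersion and changed only genes with a mean of at least 50 reads, as many up as down. It therefore does not give the error rate of the real comparison, where far more genes were called. Alternatives were DESeq2 1.42.0, limma 3.58.1 on log2 TPM, other normalizations, filters and fold rules, gene reads, unique reads, removal of mitochondrial genes plus the 10 most abundant, and leaving out each library; intron and junction reads were added after seeing the data.

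The contractile genes and the other lists were chosen with earlier results of these data known. Named genes are the 10 contractile genes, their paralogs, from each list up to 2 called genes with the largest change in each direction (mean of at least 50 exon reads) and up to 2 others of highest mean TPM, and 5 genes of like profile. Further genes (*Des*, *Smtn*, *Cspg4*, *Mkl1*, *Mkl2*, *Myocd*, *Fhl2*, *Msn*, *Vcl*, *Tln1*, *Ilk*, *Ppp1r12a*, *Ppp1r12c*, *Ppp1cb*) were named after their values were seen.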

Additional observations from a re-analysis of the deposited data

How the results depend on the processing

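Of the contractile genes, 9 were called lower under every alternative that tests all 10 except where no fold was required and with glmTreat, where 10 were, and 8 of 9 with intron reads. Among all genes 5965 were called lower with no fold threshold, in place of 3962. Genes that were not called in exon reads changed sign in 26 cases. With total counts the log2 fold changes of *Actg1*, *Tpm3*, *Cfl1* and *Ppp1r14b* were 0.082, 0.113, 0.0614 and 0.283, and with the upper quartile those of *Tpm3* and *Ppp1r14b* were 0.00629 and 0.177. With intron reads they were 0.0121 for *Myl12b*, 0.264 for *Myh11*, 0.884 for *Actn4*, 0.171 for *Cfl1*, 0.137 for *Ppp1r14b* and -1.75 for *Srf*, and with junction reads 0.0442 for *Actg1*, 0.0564 for *Myl12b*, 0.595 for *Myh11* and 0.292 for *Ppp1r14b*. With each library left out, *Actc1* ranged between -2.98 and 0.00905 (without iPSC line 10). *Ppp1r14b*, at -0.0024 in exon reads, was at 0.0036 with unique reads, 0.0019 with DESeq2, 0.0242 with RLE, 0.0911 with a mean of at least 50 reads, 0.126 with limma at either pseudocount or without a filter, 0.00882 without the most abundant genes and between -0.0626 and 0.0342 with a library left out. The exon minus intron difference of *Myh9*, -0.015, turned to 0.0433 with total counts and ranged between -0.146 and 0.133 with a library left out (0.00321 without fibroblast line 1). Calls of *Myh10*, *Actn3* and *Ppp1r14c* were lost with intron reads (-0.97, -0.32 and 0.45), while *Actb*, *Actg1*, *Myl12a*, *Dstn* and *Rdx* were called lower with them. The cause was not tested. Where a library was left out, the lone library of its group was assumed to vary like the other group. No paired analysis was possible because the iPSC lines (6 and 10) and the fibroblast lines (1 and 2) share no number. With 2 libraries a group the spread is poorly known, and *Cnn1*, with at most 582 exon reads, is the least precise.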
